A study of Mus musculus with 36 samples.

Results

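Hepcidin and 9 other genes that set how the liver senses, takes up and releases iron were followed in livers with and without the insulin receptor in hepatocytes. The 10 genes were Hamp, Hamp2, Slc40a1, Tfrc, Tfr2, Hfe, Hjv (named Hfe2 on the array), Bmp6, Id1 and Smad7. They were chosen by name, with every probe that carried the name, which gave 15 probes of the 34681 tested and 10 genes of the 23038 tested. All 10 genes and all 15 probes passed the filter on dim signals, and 14 of the probes were well above background on each of the 36 arrays.

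The study measured liver RNA of 36 male mice at 11 weeks of age, 1 array per mouse, in 6 groups of 6. IRLKO mice (knockouts below) lost the insulin receptor gene (Insr) in hepatocytes through a Cre that tamoxifen activates. They came from crosses of IRlox/lox mice, with LoxP sites on either side of exon 4, to TTR-CreTam mice, whose Cre is driven by the transthyretin promoter in liver, on C57BL/6J. IRLWT mice (controls below) had the intact receptor. Livers of each genotype were taken at ZT8, ZT12 or ZT16, hours counted from lights-on, with lights off at ZT12. All mice ate standard chow ad libitum and received no treatment per the labels, which do not say when tamoxifen was given or whether controls carried Cre.

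Hepcidin, the product of Hamp, is a peptide hormone that hepatocytes secrete. It binds ferroportin, the iron exporter encoded by Slc40a1, and causes its removal from the cell surface, so that less iron leaves gut cells, macrophages and hepatocytes. Hamp transcription is driven mainly by BMP signalling: the ligand BMP6, made largely by liver endothelial cells, acts with the co-receptor hemojuvelin (Hjv), SMAD proteins carry the signal to the nucleus, and Id1 and Smad7 are targets of the same signal. HFE and transferrin receptor 2 tie this signal to iron-loaded transferrin, and interleukin 6 acts on Hamp through STAT3. Mice have a second hepcidin gene, Hamp2, next to Hamp.

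Because the pair of hepcidin genes is so alike, the sequences that separate them on the array are shown first. Their probes lie on chromosome 7, minus strand, at chr7:31727490-31727549 for Hamp and chr7:31707520-31707579 for Hamp2 (mm9, the positions in the files). Capitals mark the bases at which the probes differ when laid side by side with an offset of 1 base.
Hamp probe: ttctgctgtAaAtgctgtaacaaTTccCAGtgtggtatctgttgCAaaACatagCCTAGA
Hamp2 probe: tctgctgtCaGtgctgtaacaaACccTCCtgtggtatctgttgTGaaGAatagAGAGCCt
Over the 59 bases that overlap, 42 were identical (71.2%) and 17 differed, and the longest identical run was 14 bases. Signal from the other paralog on either probe was not tested.

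The stretches before the starts of both genes are shown because the BMP and STAT3 arms meet there. They are the 250 bases before the annotated start, minus strand, from RefSeq on GRCm38.p6, at chr7:30944030-30944279 for Hamp and chr7:30924182-30924431 for Hamp2. Capitals mark matches to the motifs searched.
Hamp promoter: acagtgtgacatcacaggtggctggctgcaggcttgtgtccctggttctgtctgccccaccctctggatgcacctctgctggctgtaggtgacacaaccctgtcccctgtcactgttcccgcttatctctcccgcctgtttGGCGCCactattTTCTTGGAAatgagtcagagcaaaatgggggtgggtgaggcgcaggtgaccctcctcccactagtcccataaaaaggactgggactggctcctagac
Hamp2 promoter: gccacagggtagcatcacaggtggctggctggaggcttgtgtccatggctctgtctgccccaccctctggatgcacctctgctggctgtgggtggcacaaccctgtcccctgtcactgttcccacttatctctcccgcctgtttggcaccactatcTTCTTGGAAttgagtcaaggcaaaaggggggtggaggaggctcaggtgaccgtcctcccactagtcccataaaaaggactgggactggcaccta
The windows were identical at 227 of 253 aligned positions (89.7%). The letters GGCGCC, the core of a BMP response element, lay 109 to 104 bases before the Hamp start and were not found in the Hamp2 window. The STAT pattern TTCNNNGAA matched as TTCTTGGAA in both, 97 to 89 bases before the start of Hamp and 94 to 86 before that of Hamp2. Both strands were searched, and the matches do not overlap each other. Of 32851 windows of this length, 9.59% held GGCGCC and 7.02% held TTCNNNGAA. Of the other genes, 4 had a RefSeq window (Tfrc, Tfr2, Hfe and Bmp6). Tfrc held GGCGCC at 89 to 84 bases before 1 of its starts, and Bmp6 held the E-box letters CACGTG at 127 to 122, a motif in 6.02% of windows. The FoxO pattern TGTTTAC, in 3.17% of windows, was found in none of the 6 genes. A match of letters is a description and not a binding site.

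Levels are log2 signal relative to the array's 75th percentile, so 0 is that percentile, and differences are log2 ratios fitted with limma over all 36 arrays with wash batch as a term. A gene is called where the Benjamini-Hochberg adjusted p over all genes was under 0.05. The labels separate mice by number only, so p-values measure the spread between these mice. Each array's 75th percentile was 311 to 525 intensity units and 53.7% to 63.1% of spots were well above background. The deleted gene, Insr, was lower in knockouts by log2 ratios of -1.77, -1.88 and -1.65 at ZT8, ZT12 and ZT16, without overlap between genotypes at any time. Which exon its probe reads was not determined. The ZT8 knockout replicate 3 stands apart from its group on many genes, and without it each of the 103 results on the 10 genes kept its side of the threshold. The sign turned for 3 that were not called with or without it (Hfe between genotypes at ZT8, and in knockouts Tfr2 from ZT8 to ZT12 and Tfrc from ZT8 to ZT16).

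In the knockout liver the hepcidin transcript was more abundant at each time and the ferroportin transcript less abundant. At ZT8, 3 of the 10 genes were called: Hamp and Id1 rose and Slc40a1 fell. At ZT12, 5 were called, with Hamp higher and Tfrc, Slc40a1, Hfe and Hjv lower. At ZT16, 4 were called, with Hamp and Bmp6 higher and Tfrc and Slc40a1 lower. Of all genes tested 35.4%, 42.2% and 39.9% were called at these times, so the counts are near the background of a genotype that moved much of the transcriptome. Genotypes were free of overlap for 2, 0 and 1 of the 10, in order of time, where 15.5%, 21.3% and 19.2% of all genes were. The median log2 ratio of the 10 genes was -0.01, -0.17 and -0.20, and that of all genes 0.01, -0.02 and 0.00.

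**Figure D1:**
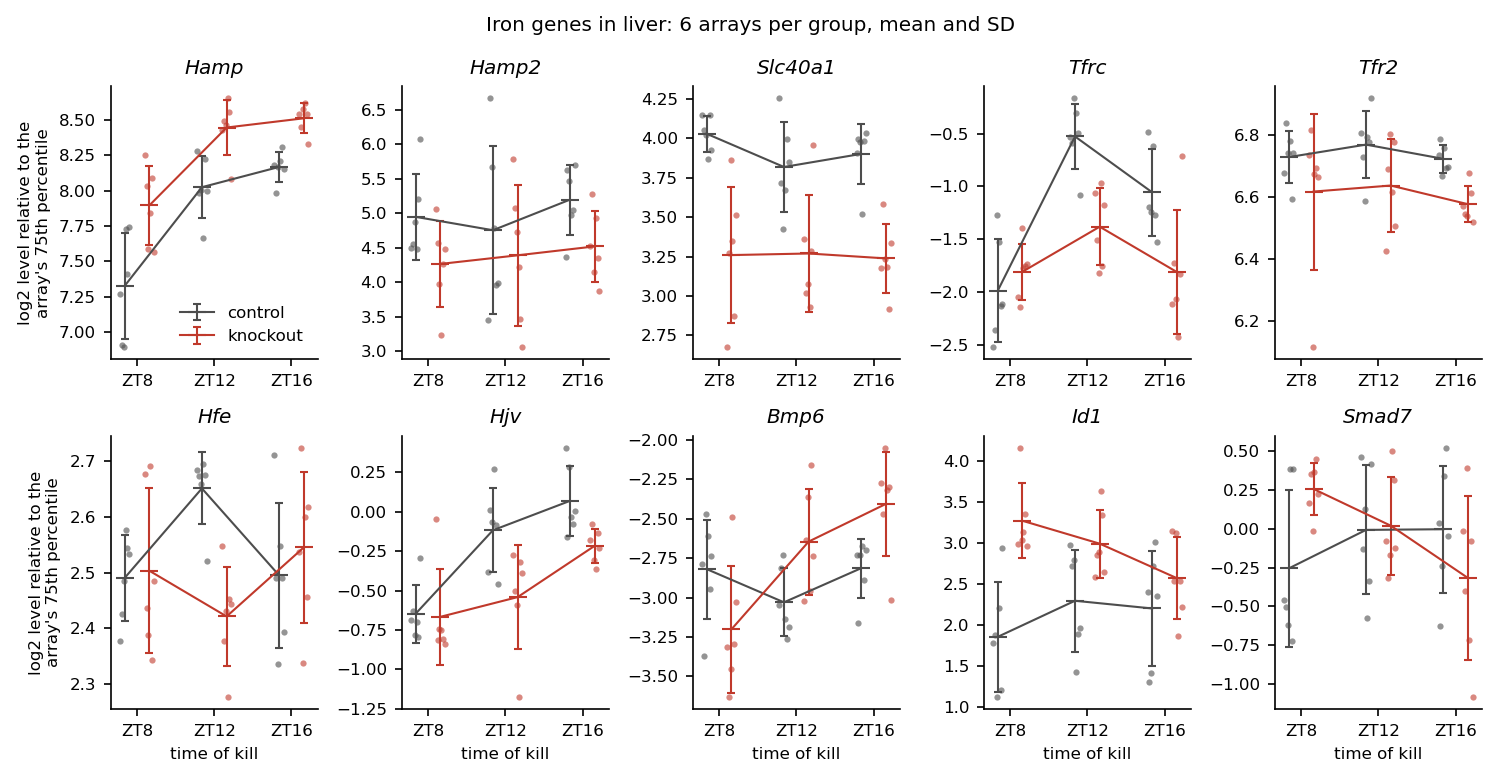
Level of each of the 10 genes on every array, as log2 signal relative to the array's 75th percentile (y axis, a separate scale per gene), by time of day (x axis) for controls (grey) and knockouts (red); points are arrays, bars are group means with SD, n = 6, and lines join the means of different mice. Hamp rises with time in both genotypes with knockouts higher, and Slc40a1 is lower in knockouts. From ZT8 to ZT12 Tfrc rises by 1.46 in controls and by 0.39, not called, in knockouts. Its genotype effect was not shown to differ between ZT8 and ZT12 (limma adjusted p 0.13).

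Hamp, the hepcidin gene, was measured from 6.90 to 7.74 in ZT8 controls (median 7.34) and from 7.57 to 8.25 in ZT8 knockouts (median 7.94). At ZT12 controls spanned 7.66 to 8.28 (median 8.00) and knockouts 8.08 to 8.65 (median 8.48). At ZT16 controls spanned 7.98 to 8.31 (median 8.17) and knockouts 8.33 to 8.62 (median 8.54). Knockouts were higher at each time, the groups overlapped at ZT8 and ZT12, and at ZT16 every knockout lay above every control. The fitted differences were 0.57, 0.42 and 0.36 (SE 0.14 each; limma adjusted p 0.0014, 0.0128 and 0.0342), which are 1.48-, 1.34- and 1.28-fold. Within single wash batches, with 1 to 3 arrays per group, all 9 differences were positive, from 0.10 to 1.00. The ZT16 call was lost without any of 6 single ZT16 arrays (control replicate 1, 2 or 3, knockout replicate 1, 3 or 4; ratio 0.32 to 0.36, adjusted p up to 0.0741), with slide in place of wash batch (0.0629) and with no filter on dim probes (0.0594). The ZT8 call was lost when only the groups compared were fitted (adjusted p 0.0563).

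RNA came from whole liver, so fewer cells of a type and less RNA per cell cannot be told apart. Of 8 hepatocyte markers, 0 were higher and 4 lower at ZT8, 1 higher and 4 lower at ZT12, and 0 higher and 4 lower at ZT16, while Hamp was higher. One of the 4 was Ttr, the gene whose promoter drives the Cre. Their summed level, in units of the array's 75th percentile, was 3463 to 4217 in ZT8 controls and 2576 to 3688 in ZT8 knockouts. It was 3878 to 4324 and 2836 to 3686 at ZT12, and 3871 to 4625 and 3190 to 3424 at ZT16. Of all genes 35.4%, 42.2% and 39.9% were called at ZT8, ZT12 and ZT16. All 8 hepatocyte markers were well above background on every array. Their part in the Hamp result was not tested.

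Hamp2, the second hepcidin gene, varied widely between mice of 1 group. It spanned 4.48 to 6.08 in ZT8 controls and 3.23 to 5.06 in ZT8 knockouts, with medians of 4.71 and 4.37. The spread was widest at ZT12, where controls ran from 3.45 to 6.67 and knockouts from 3.06 to 5.79. At ZT16 the ranges were 4.36 to 5.71 and 3.88 to 5.28. The groups overlapped at each time. The log2 ratios, -0.73, -0.32 and -0.65, did not pass (adjusted p 0.22, 0.61 and 0.27), with 95% intervals of -1.66 to 0.21, -1.25 to 0.62 and -1.59 to 0.28. These intervals reach below and above 0, and a difference between Hamp and Hamp2 in their response was not tested. Within groups, the deviations of Hamp and Hamp2 had a Pearson r of 0.12 over 36 arrays (permutation p 0.538) and a Spearman rho of 0.11 (permutation p 0.540).

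Slc40a1, the ferroportin gene, lay at 3.87 to 4.15 in ZT8 controls (median 4.04) and 2.68 to 3.87 in ZT8 knockouts (median 3.31). At ZT12 controls spanned 3.43 to 4.25 and knockouts 2.93 to 3.96, and at ZT16 the ranges were 3.52 to 4.03 and 2.92 to 3.58. The ZT8 groups did not overlap, although the highest knockout lay only just below the lowest control, and the later groups did. The fitted differences were -0.79, -0.53 and -0.68 (SE 0.16 each; limma adjusted p 2.6e-04, 0.0092 and 0.0012). Knockouts were therefore lower by 1.73-, 1.44- and 1.60-fold. The ZT12 call was lost with quantile normalization (adjusted p 0.0810), in the authors' processed values (0.0803) and with only the groups compared (0.0523). Within wash batches the ZT12 difference was -0.75 and -0.63 in batches 1 and 2. In batch 3, with 1 knockout and 2 controls, it was 0.17. At ZT8 and ZT16 the differences were negative in each batch.

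Macrophages of the liver also hold ferroportin. Of 10 Kupffer cell and macrophage markers, 3, 5 and 4 were higher in knockouts at ZT8, ZT12 and ZT16 and 0 were lower at any time, with median log2 ratios of 0.62, 0.82 and 0.66. The other markers were not called, and 35.4%, 42.2% and 39.9% of all genes were. Their summed level was 43.2 to 105.5 in ZT8 controls and 64.3 to 274.4 in ZT8 knockouts, 34.2 to 109.0 and 80.7 to 230.0 at ZT12, and 40.2 to 149.5 and 89.3 to 300.7 at ZT16. All 10 were well above background on every array, and their part in the Slc40a1 result was not tested.

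**Figure D2:**
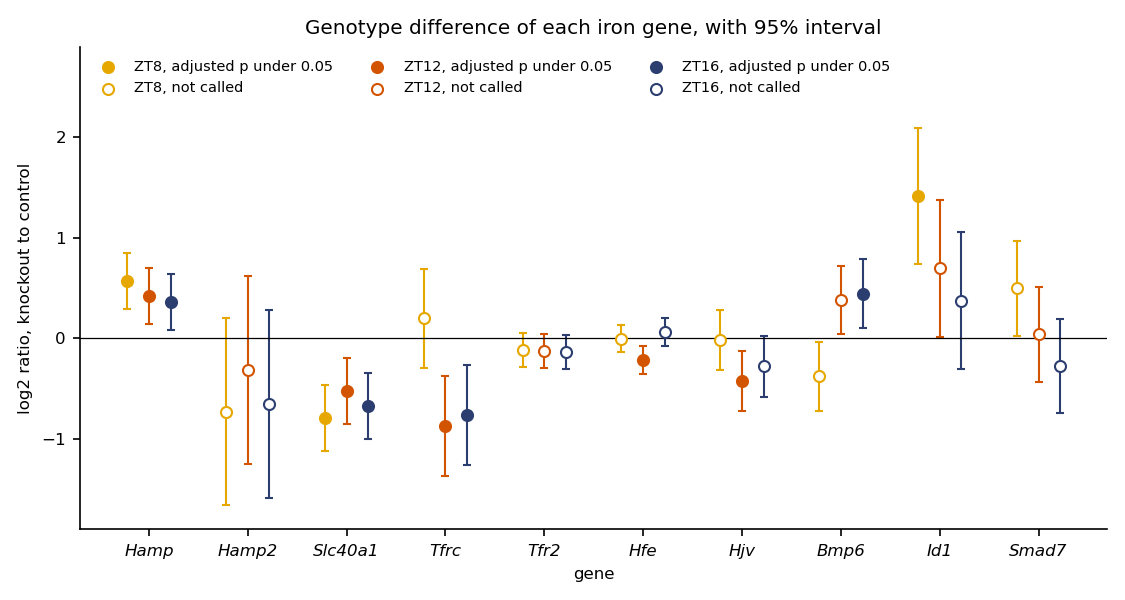
Log2 ratio of knockout to control (y axis) for each gene (x axis) at ZT8, ZT12 and ZT16, with 95% interval from the limma fit over 36 arrays; filled points have an adjusted p under 0.05 over all genes. Hamp is above 0 and Slc40a1 below 0 at each time, Bmp6 lies on opposite sides at ZT8 and ZT16, and the intervals of Hamp2 are the widest.

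Tfrc encodes transferrin receptor 1, the main route by which cells take up iron bound to transferrin. Controls lay at -2.52 to -1.27 at ZT8 and knockouts at -2.14 to -1.39, so the groups overlapped almost fully. At ZT12 controls had moved to -1.08 to -0.17 while knockouts lay at -1.82 to -0.97. At ZT16 the ranges were -1.52 to -0.48 and -2.42 to -0.72. Knockouts did not pass at ZT8 (0.20, limma adjusted p 0.57) and fell by 0.87 and 0.76 on the log2 scale later (SE 0.24; adjusted p 0.0045 and 0.0125), the last call lost when only the groups compared were fitted (adjusted p 0.0589). Within wash batches the ZT16 difference was 0.13 in batch 1, with 2 knockouts and 1 control, and -1.11 and -1.04 in batches 2 and 3. At ZT12 it was negative in each batch. Whether the genotype effect on Tfrc differed between times was tested directly by a moderated F test and did not pass (adjusted p 0.0720). It passed under 3 alternatives (normexp background 0.0451, mean of all kept probes 0.0378, array weights 0.0163) and without any of 3 single arrays (knockout ZT16 replicate 6, control ZT8 replicates 3 and 4).

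Red cell precursors and dividing cells are rich in transferrin receptor 1. Of 6 red cell markers tested, of 8 listed, 0, 2 and 3 were higher in knockouts and 1 was lower at each time. The lower one was Alas2, the red cell form of the enzyme that starts heme synthesis, with log2 ratios of -3.50, -2.81 and -1.77 and no overlap between genotypes. Hba-a1, an alpha globin gene, was not called at ZT8 (-0.12) and was higher later (0.95 and 0.91). The summed level of the 6 was 215 to 592 in ZT8 controls and 180 to 369 in ZT8 knockouts, 156 to 328 and 286 to 660 at ZT12, and 210 to 338 and 361 to 617 at ZT16. Of 5 markers of dividing cells tested, of 6 listed, 2, 1 and 3 were higher and 0 lower, with sums of 0.75 to 1.84 in controls and 0.75 to 6.77 in knockouts over the 3 times. Only 4 of the 6 red cell markers and 2 of the 5 dividing cell markers were well above background on every array. Of all genes 35.4%, 42.2% and 39.9% were called at ZT8, ZT12 and ZT16, the background for the red cell and dividing cell counts. The part of these markers in the Tfrc result was not tested.

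Tfr2 encodes transferrin receptor 2, a sensor of iron-loaded transferrin on hepatocytes. Control medians were 6.74, 6.79 and 6.72 and knockout medians 6.69, 6.65 and 6.56 at ZT8, ZT12 and ZT16. The groups overlapped, with ranges of 6.60 to 6.84 and 6.12 to 6.82 at ZT8, 6.59 to 6.92 and 6.43 to 6.81 at ZT12, and 6.67 to 6.79 and 6.52 to 6.68 at ZT16. The log2 ratios of -0.12, -0.13 and -0.13 did not pass (adjusted p 0.29, 0.23 and 0.20), and the 95% interval at ZT16 was -0.30 to 0.03. Without ZT8 knockout replicate 3, the lowest array, the ZT8 ratio was -0.015 (adjusted p 0.89). With quantile normalization and all arrays the ZT8 ratio was -0.18 and passed (adjusted p 0.0146), as it did in the authors' processed values (-0.16, adjusted p 0.0472).

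Hfe encodes the membrane protein mutated in classical hereditary hemochromatosis, and its result depended on the probe. Its brighter probe (chr13:23795710-23795769, mm9, minus strand) lay at 2.38 to 2.58 in ZT8 controls and 2.34 to 2.69 in ZT8 knockouts. At ZT12 the ranges were 2.52 to 2.69 and 2.28 to 2.55, and at ZT16 2.34 to 2.71 and 2.34 to 2.72. Only at ZT12 did the genotypes largely part, with a log2 ratio of -0.21 (SE 0.07, limma adjusted p 0.0116), against 0.00 at ZT8 and 0.06 at ZT16 (adjusted p 0.98 and 0.49). The second probe (chr13:23794468-23794527, mm9) was higher in knockouts at each time, by 0.45, 0.27 and 0.48 (adjusted p over all probes 5.1e-04, 0.0265 and 2.1e-04). Its ZT8 levels were -1.85 to -1.64 in controls and -1.52 to -1.21 in knockouts, without overlap. At ZT16 its groups, -1.54 to -1.19 and -1.14 to -0.61, did not overlap either. The ZT12 difference of the brighter probe did not pass with quantile normalization (-0.14, adjusted p 0.121) or in the authors' processed values (-0.13, 0.167), and with the mean of both probes it was 0.03 (0.794). No single direction can be given for Hfe.

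Hjv encodes hemojuvelin, the BMP co-receptor that hepcidin expression requires. At ZT8 controls spanned -0.79 to -0.29 and knockouts -0.84 to -0.05, and all but 1 mouse of each group lay near the lower end. At ZT12 the ranges were -0.45 to 0.27 and -1.17 to -0.27, and at ZT16 -0.16 to 0.40 and -0.36 to -0.08. Knockouts were lower at ZT12 by a log2 ratio of -0.42 (SE 0.15, limma adjusted p 0.0205), with overlap between groups. The ratios were -0.02 at ZT8 (adjusted p 0.93) and -0.28 at ZT16 (0.13). The ZT12 call was lost without control replicate 4 (-0.34, adjusted p 0.0722), without knockout replicate 4 (-0.30, 0.0772) and with only the groups compared (0.0906), while the ZT16 difference passed in that last fit (-0.29, 0.0228).

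Bmp6, the ligand, changed order with time. At ZT8 controls lay at -3.37 to -2.47 (median -2.76) and knockouts at -3.63 to -2.49 (median -3.30). At ZT12 controls spanned -3.26 to -2.73 and knockouts -3.02 to -2.16, and at ZT16 -3.16 to -2.67 and -3.02 to -2.05. The groups overlapped at each time, with the knockout median below that of controls at ZT8 and above it later. The log2 ratios were -0.38 at ZT8 (adjusted p 0.0774), 0.38 at ZT12 (0.0657) and 0.44 at ZT16 (SE 0.17, limma adjusted p 0.0343). Bmp6 was the 1 gene of the 10 past the F test for a genotype effect that differs between times (adjusted p 0.0353), a test that called 8.48% of all genes. Its effect was higher at ZT16 than at ZT8 by 0.82 (SE 0.24, adjusted p 0.0231), a difference that 9.77% of all genes passed. For the steps from ZT8 to ZT12 and from ZT12 to ZT16 the genotype effect of 0 of the 10 genes differed by limma, against 1.25% and 1.95% of all genes, and 3 and 1 had an unadjusted p under 0.05. Within wash batches its 3 ZT8 differences were all negative, -0.67 to -0.27, and its 6 later ones all positive, 0.16 to 0.51.

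Of the Bmp6 calls, the one between genotypes at ZT16 was lost under 6 of 12 alternatives and without any of 6 single arrays (knockout replicate 1, 3, 4 or 5, control replicate 2 or 5; adjusted p up to 0.0997), with the smallest ratio, 0.15, under normexp background correction (adjusted p 0.153). The F test was lost under 3 of 11 alternatives (adjusted p up to 0.122) and without any of 8 single arrays (knockout ZT8 replicate 1, 2 or 5, knockout ZT16 replicate 4, control ZT8 replicate 3, 4, 5 or 6; adjusted p up to 0.0823). The difference between the ZT16 and ZT8 effects was lost under normexp (0.33, adjusted p 0.0657) and without knockout ZT8 replicate 2 (0.76, 0.0517). The ZT8 genotype difference passed without control replicate 2 (-0.46, adjusted p 0.0371) or knockout replicate 4 (-0.51, 0.0144). The ZT12 difference passed with array weights (0.47, adjusted p 0.0189) and without knockout ZT12 replicate 4 (0.46, 0.0328) or knockout ZT8 replicate 4 (0.37, 0.0474). Of 10 liver endothelial cell markers, 0 were called at ZT8, 9 were higher at ZT12 and 8 at ZT16. Of all genes 35.4%, 42.2% and 39.9% were called at these times, the background for the stellate cell markers too. Beside Bmp6 log2 ratios of -0.38, 0.38 and 0.44, the endothelial markers had median log2 ratios of 0.04, 0.50 and 0.41. Their summed level was 39.0 to 48.2 in ZT8 controls and 38.0 to 52.0 in ZT8 knockouts, 35.2 to 44.5 and 47.0 to 66.9 at ZT12, and 38.3 to 56.8 and 51.7 to 64.3 at ZT16. Of 8 stellate cell markers 1, 6 and 5 were higher and 0 lower. Their sums were 49.9 to 67.8 in controls and 45.9 to 110.0 in knockouts at ZT8, 40.6 to 69.0 and 77.7 to 88.9 at ZT12, and 52.4 to 90.6 and 79.4 to 100.7 at ZT16. Their part in the Bmp6 result was not tested.

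Id1, a transcriptional regulator that BMP and SMAD signalling induces, had the largest genotype difference of the 10 genes. At ZT8 controls spanned 1.13 to 2.95 (median 1.83) and knockouts 2.96 to 4.16 (median 3.09), without overlap. The lowest of these knockouts lay only just above the highest control. At ZT12 the ranges were 1.43 to 2.98 and 2.59 to 3.64, and at ZT16 1.31 to 3.01 and 1.87 to 3.15, with overlap at both. Knockouts were 1.42 higher at ZT8 (SE 0.33, limma adjusted p 0.0012), a 2.67-fold rise. Within wash batches the ZT8 difference was 2.05 and 1.91 in batches 1 and 2. In batch 3, with 3 knockouts and 2 controls, it was 0.45. The differences at ZT12 and ZT16, 0.70 and 0.38, did not pass (adjusted p 0.0920 and 0.389). The ZT12 difference passed in the authors' processed values (0.77, adjusted p 0.0475) and without control ZT12 replicate 1 (0.85, 0.0485). The F test for a difference between times did not pass either (adjusted p 0.333), so the effect was not shown to differ between times.

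Smad7, an inhibitory SMAD that the same signal induces, was not called at any time. Its ranges were -0.72 to 0.38 in controls and -0.02 to 0.45 in knockouts at ZT8, -0.57 to 0.46 and -0.32 to 0.50 at ZT12, and -0.63 to 0.52 and -1.08 to 0.39 at ZT16. The groups overlapped at each time. The log2 ratios were 0.50, 0.04 and -0.28 (adjusted p 0.0941, 0.905 and 0.361), with 95% intervals of 0.02 to 0.97, -0.43 to 0.51 and -0.75 to 0.20. The ZT8 ratio passed without control replicate 4 or 6 (0.62 in each case, adjusted p 0.0466 and 0.0461).

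On the brighter or single probe of each gene, time of day moved 3 of the genes in controls. From ZT8 to ZT12 Hamp, Tfrc and Hjv rose, 3 of 10 genes where 14.9% of all genes were called, and the same 3 were higher at ZT16 than at ZT8, where 26.6% were called. Hamp rose by 0.70 to ZT12 and 0.82 to ZT16 (SE 0.13 and 0.14, limma adjusted p 4.8e-04 and 2.3e-05), and every ZT16 control lay above every ZT8 control. Tfrc rose by 1.46 and 0.94 (adjusted p 6.8e-05 and 0.0038), without overlap between ZT8 and ZT12, as for 9.58% of all genes. Hjv rose by 0.53 and 0.71 (adjusted p 0.0118 and 4.1e-04), without overlap between ZT8 and ZT16. Hamp and Hjv are 2 of the 10 genes, and 15.8% of all genes did not overlap there. Between ZT12 and ZT16 0 of 10 genes were called by limma, where 3.62% of all genes were, and 2 (Hfe and Tfrc, both lower at ZT16) had an unadjusted p under 0.05.

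The second probes added time differences in controls that the brighter ones did not show. That of Hfe rose by 0.39 to ZT12 (limma adjusted p over all probes 0.0060) and 0.44 to ZT16 (8.5e-04, without overlap), where the brighter probe gave 0.16 and -0.01, not called. That of Slc40a1 was lower at ZT16 than at ZT8 by -0.46 (adjusted p 0.0286), where the brighter probe gave -0.11, not called. That of Tfrc rose by 1.24 and 0.82 (adjusted p 5.04e-05 and 0.0024), as the brighter one did. In knockouts the second Hfe probe rose from ZT8 to ZT16 by 0.47 (adjusted p 3.6e-04, without overlap).

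In knockouts Hamp also rose with time, and Bmp6 joined it. From ZT8 to ZT12 2 genes were called, Hamp (0.55, SE 0.14, limma adjusted p 0.0068) and Bmp6 (0.55, adjusted p 0.0292), where 13.2% of all genes were. From ZT8 to ZT16 3 were called, Hamp (0.62, adjusted p 7.3e-04, without overlap, as for 9.89% of all genes), Bmp6 (0.79, adjusted p 4.6e-04) and Hjv (0.45, adjusted p 0.0188), where 28.9% of all genes were. From ZT12 to ZT16 0 of 10 were called by limma, where 12.6% of all genes were, and 1 (Hjv, higher) had an unadjusted p under 0.05. The ZT12 call of Bmp6 was lost under 3 alternatives and without any of 5 single arrays (knockout ZT8 replicate 1, 2 or 5, knockout ZT12 replicate 3 or 5; adjusted p up to 0.0942), and that of Hamp with only the groups compared (adjusted p 0.124). Tfrc in knockouts differed from ZT8 by 0.39 and -0.02, not called (adjusted p 0.35 and 0.97). The Hjv call was lost without knockout ZT8 replicate 5 (adjusted p 0.0521) and with slide in place of wash batch (0.0686). The difference of the Tfrc ZT8 to ZT16 course between genotypes, -0.96, did not pass (adjusted p 0.0750), although it passed with array weights (-1.11, adjusted p 0.0155) and without any of 4 single arrays (control ZT16 replicate 6, knockout ZT16 replicate 6, control ZT8 replicate 3 or 4; down to 0.0098). It did not pass for Hamp (-0.21, adjusted p 0.59) or for Hjv (-0.26, adjusted p 0.52).

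**Figure D3:**
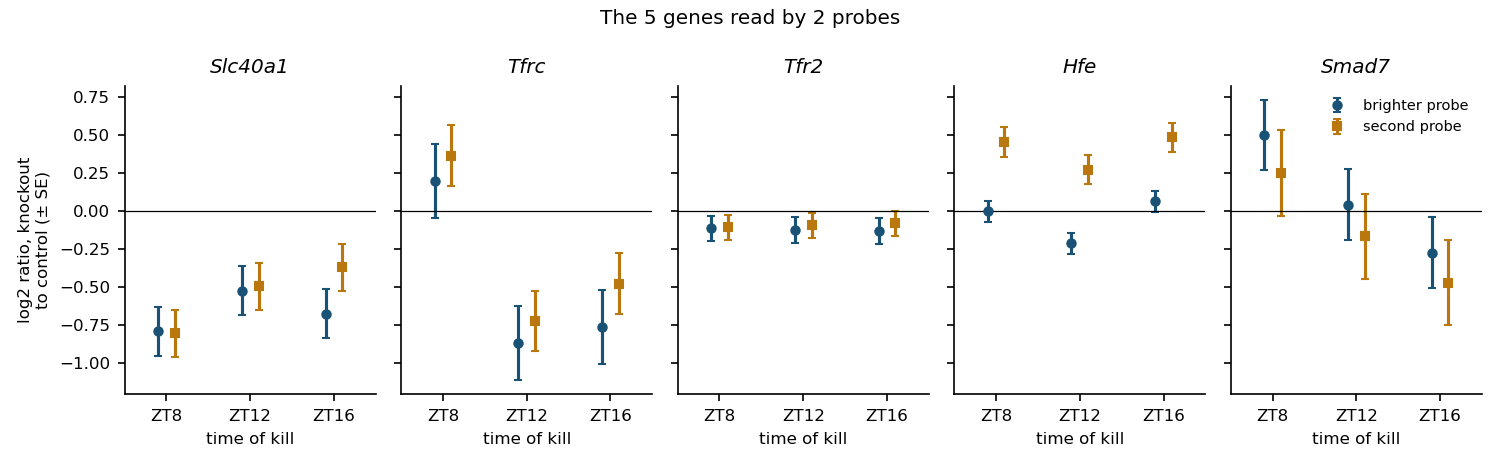
Log2 ratio of knockout to control with its standard error (y axis) by time of day (x axis) for the 5 genes read by 2 probes, from the limma fit of all probes over 36 arrays; circles are the brighter probe and squares the second. The probes of Hfe lie apart at each time, and at ZT16 the second probes of Slc40a1 (-0.37) and Tfrc (-0.48) are nearer 0 than the brighter ones (-0.68 and -0.76).

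For 5 genes a second probe allowed the same question to be asked again, with adjustment over all 34681 probes, of which 33.7%, 39.3% and 37.9% were called at ZT8, ZT12 and ZT16. Of the 15 probes 5, 8 and 5 were called. The second probe of Slc40a1 (chr1:45980637-45980696, against chr1:45965255-45965314 for the brighter one, mm9, minus strand) gave -0.81, -0.50 and -0.37 (adjusted p 1.6e-04, 0.0118 and 0.0594). That of Tfrc (chr16:32620470-32620529, against chr16:32632255-32632314, plus strand) gave 0.36, -0.73 and -0.48 (adjusted p 0.166, 0.0043 and 0.0570). On this probe the genotype effect on Tfrc did differ between times (F test adjusted p 0.0293), against 0.0785 for the brighter probe in the same fit. The probes of Tfr2 overlap (chr5:138028646-138028705 and chr5:138028592-138028651, plus strand), the second gave -0.11, -0.10 and -0.08, and neither was called. The second probe of Smad7 was well above background on 34 arrays and was not called (0.25, -0.17 and -0.47).

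The single-probe genes lie at chr3:96332113-96332172 for Hjv (plus strand), chr13:38591479-38591538 for Bmp6 (plus strand) and chr2:152563083-152563142 for Id1 (plus strand), all mm9. Which exon or untranslated region each probe reads was not determined, since the annotation at hand is of a later build.

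Mice of 1 group that had more Id1 also had more Smad7 and more Hamp. Each gene's deviation from its group and wash batch was taken on the 36 arrays, and all 45 pairs of the 10 genes were compared, a description chosen after the data were seen. Id1 and Smad7 had a Pearson r of 0.807 (permutation p 1e-05, the smallest that 100000 permutations within groups can give; 4.5e-04 adjusted over the 45 pairs) and a Spearman rho of 0.803 (permutation p 1e-05). Hamp and Smad7 had r 0.558 (permutation p 1.9e-04, adjusted 0.0043) and rho 0.558 (permutation p 5e-04). Hamp and Id1 had r 0.532 (permutation p 0.0018, adjusted 0.0192) and rho 0.509 (permutation p 0.0029). Without the 2 arrays farthest from the median of 1 gene of the pair these were 0.804, 0.531 and 0.481. That gene was Id1 for Id1 and Smad7 and Hamp for the pairs with Hamp, and arrays extreme in the other gene were not sought. Within single wash batches Id1 and Smad7 had r of 0.809, 0.831 and 0.800, Hamp and Smad7 0.609, 0.478 and 0.561, and Hamp and Id1 0.577, 0.472 and 0.534. Within controls and within knockouts the 3 pairs had r of 0.829 and 0.790, 0.680 and 0.396, and 0.590 and 0.432.

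**Figure D4:**
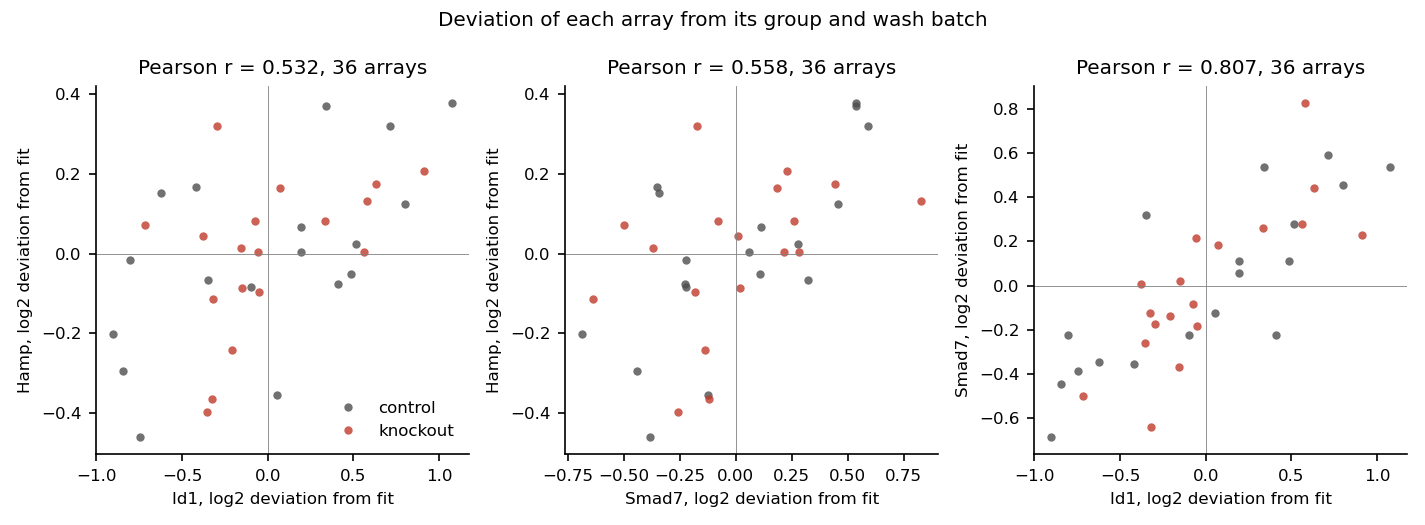
Deviation of each of 36 arrays from its group and wash batch, on the log2 scale, for Hamp against Id1, Hamp against Smad7 and Smad7 against Id1 (both axes), controls grey and knockouts red. Arrays with more Id1 have more Smad7 (Pearson r = 0.807), and Hamp follows both less closely (0.532 and 0.558).

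Of the other 42 pairs, 2 passed after adjustment on Pearson's r but not on Spearman's rho. Hfe and Hjv had r 0.515 (permutation p 0.0021, adjusted 0.0192) and rho 0.411 (permutation p 0.0174, adjusted 0.157). Tfrc and Tfr2 had r -0.414 (permutation p 0.0019, adjusted 0.0192) and rho -0.436 (permutation p 0.0091, adjusted 0.103). Hamp and Slc40a1 had r -0.408 (permutation p 0.0220, adjusted 0.154) and rho -0.368 (permutation p 0.0432). For Hamp and Slc40a1 r was -0.862 within knockouts and 0.10 within controls, and 0.05, -0.23 and -0.74 within wash batches 1, 2 and 3. Other pairs also had unlike values within knockouts and within controls, such as Tfr2 and Slc40a1 (-0.63 and 0.13) and Tfrc and Bmp6 (-0.53 and 0.43). Differences between genotypes or batches in these values were not tested. Bmp6 and Hamp had r 0.06 (permutation p 0.757) and rho 0.02. These pairs share arrays, so they are not independent of each other. How often pairs of other genes reach such values was not determined, so none of these correlations is shown to be particular to its pair.

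Over all genes well above background on every array (17873 ranked), those whose within-group deviations were most like those of Hamp were an unnamed long noncoding feature on chromosome 8 (r 0.831), Nr5a1 (0.726) and Kri1 (0.710). For Tfrc they were Cdhr5 (0.694), Wfdc15b (0.682) and an unnamed transcript on chromosome X (0.676). For Bmp6 they were Plpp1 (0.731), She (0.729) and an unnamed transcript on chromosome 7 (0.707). These were taken as the highest of many values over 36 arrays and carry no test. Of the 9, Cdhr5 was lower in knockouts at each time (-0.74, -0.65 and -0.68). Higher at ZT12 and ZT16 were She (0.61 and 0.58), the chromosome 7 transcript (0.64 and 0.42) and Kri1 (0.23 and 0.35). Plpp1 was higher at ZT12 only (0.40), and the others were not called. Of all genes 35.4%, 42.2% and 39.9% were called at ZT8, ZT12 and ZT16.

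The genes around hepcidin were read through 6 lists holding 64 genes, of which 63 were tested, all but Fam132b (erythroferrone). Over the lists 31, 38 and 33 genes were called at ZT8, ZT12 and ZT16: 15 higher and 16 lower, 18 and 20, and 14 and 19. Of all genes 35.4%, 42.2% and 39.9% were called at these times, the background for the list counts here and below. With quantile normalization the splits were 15 and 15, 25 and 17, and 23 and 18. Among 17 genes of the BMP and SMAD pathway 7, 8 and 4 were higher and 2, 2 and 3 lower, with median log2 ratios of 0.09, 0.15 and 0.05. Atoh8, a BMP target that promotes hepcidin transcription, was 1.25, 1.23 and 0.94 higher (limma adjusted p 5.7e-06, 5.5e-06 and 2.1e-04). Bmp2, the other endothelial BMP ligand, was 0.37, 0.71 and 0.50 higher (adjusted p 0.0103, 8.5e-06 and 8.3e-04). Tmprss6, the protease that cleaves hemojuvelin and so restrains hepcidin, was lower by -0.36, -0.38 and -0.44 (adjusted p 7.1e-04, 4.1e-04 and 7.5e-05). Id3, a SMAD target related to Id1, was higher at ZT8 (0.57, adjusted p 0.0395) and not called later (-0.13 and 0.05). Bambi, a decoy receptor that BMP signalling induces, was higher by 0.43, 0.70 and 0.52. The receptor genes were mixed: Bmpr1a was higher at ZT8 (0.31) and not called later (0.10 and -0.10), a difference between times that passed (F test adjusted p 0.0036), and Acvr2a was lower at ZT8 and ZT16 (-0.24 and -0.49).

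The inflammatory arm moved in both directions. Of 8 genes 4, 5 and 3 were higher and 2 lower at each time, with medians of 0.19, 0.33 and 0.05. Stat3, the factor that carries the interleukin 6 signal to Hamp, was 0.52, 0.56 and 0.68 higher, without overlap at any time. Socs3, the feedback inhibitor it induces, was higher at each time, by 1.58 at ZT8 and 1.41 at ZT16. Cebpa and Creb3l3, both activators of Hamp transcription, were lower, Cebpa by -0.64, -0.56 and -0.52 and Creb3l3 by -0.43, -0.97 and -0.89. The receptor subunit Il6st was not called at ZT8 (0.05) and was higher at ZT12 and ZT16 (0.76 and 0.52), with an F test adjusted p of 0.0016.

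Iron transport and storage genes did not move as 1 group. Of 11 genes of iron uptake and export 1, 3 and 2 were higher and 1, 4 and 4 lower. Steap2, a ferrireductase, was higher at each time (0.99, 0.69 and 0.96), Steap3 was lower at ZT8 and ZT12 (-0.43 and -0.40), and Steap4 at ZT12 and ZT16 (-0.98 and -0.96). Slc25a37 (mitoferrin 1, which brings iron into mitochondria) was lower at ZT12 and ZT16 (-0.50 and -0.63) and not called at ZT8 (-0.08). Slc39a14, which imports iron that is not bound to transferrin, was lower at ZT16 (-0.43) and not called earlier (-0.09 and 0.11). Of 8 genes of storage and sensing 0 were higher and 3, 3 and 2 lower. Aco1, the iron regulatory protein 1, was lower by -0.50, -0.69 and -0.85 and Ncoa4, the receptor for ferritin breakdown, by -0.30, -0.36 and -0.55, both without overlap at any time. Ferritin heavy chain Fth1 was not called (-0.02, -0.05 and 0.02), and light chain Ftl1 was lower at ZT12 (-0.32, adjusted p 0.0015).

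Heme genes included both directions. Of 8 genes of heme synthesis 2, 0 and 3 were higher and 5, 5 and 4 lower, with medians of -0.24, -0.33 and -0.22. Cpox, a late enzyme of the pathway, was lower by -0.65, -1.10 and -1.24. Alas1, the liver form of the rate-limiting enzyme, was higher at ZT8 (1.34, adjusted p 0.0023) and not called later (0.08 and -0.14), and the F test of that difference did not pass (adjusted p 0.0805). Of 11 genes of heme and hemoglobin recycling 1, 2 and 2 were higher and 3, 4 and 4 lower. Hmox1, heme oxygenase 1, was higher by 0.80, 0.79 and 0.81, while Blvra, which reduces the biliverdin it makes, was lower by -0.36, -0.42 and -0.43 and the heme carrier Slc46a1 by -0.42, -0.55 and -0.54.

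**Figure D5:**
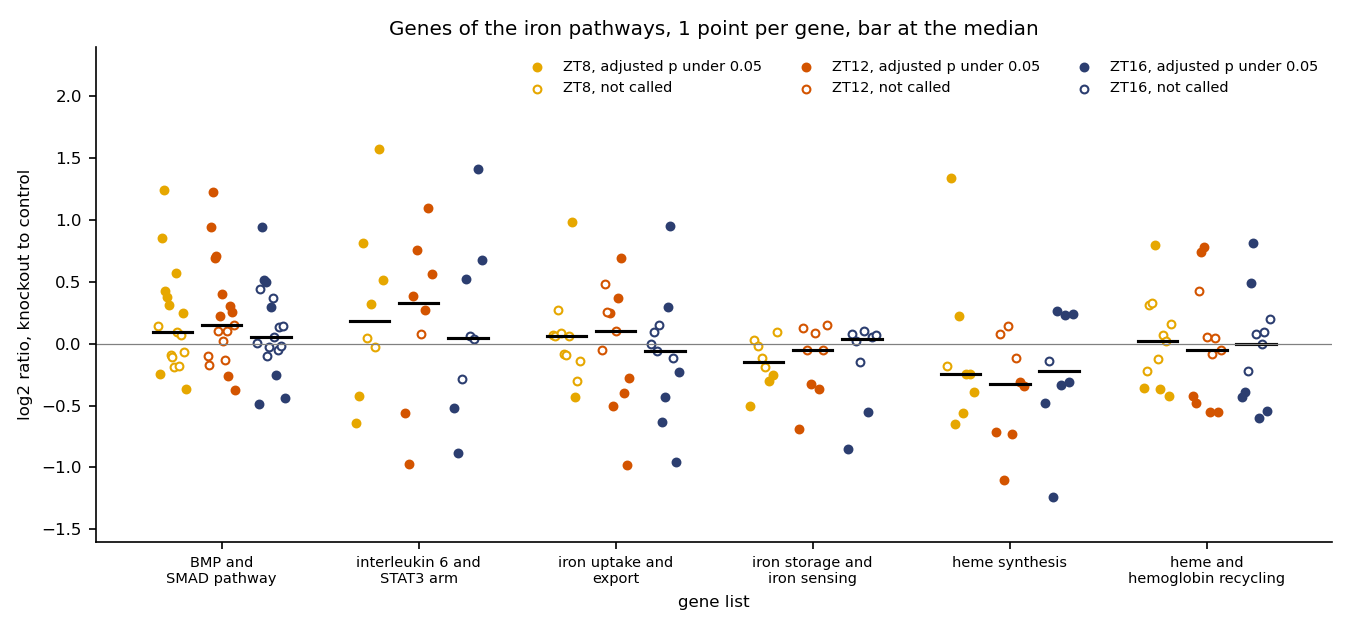
Log2 ratio of knockout to control (y axis) for the 63 tested genes of 6 iron-related lists (x axis) at ZT8, ZT12 and ZT16, 1 point per gene; filled points have an adjusted p under 0.05 over all genes and the black bar is the list's median. Each list holds genes on both sides of 0, and in iron storage and sensing the filled points are all below it.

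Markers of other tissues were read on the same arrays. Of 8 pancreas markers 4 were tested, 1 higher and 2 lower at each time, with sums of 3.73 to 6.16 in controls and 4.07 to 7.46 in knockouts. Of 5 bile duct markers 0, 0 and 1 were higher and 0, 1 and 0 lower, with sums of 4.17 to 13.14 in controls and 2.00 to 11.58 in knockouts. Only 2 of the 5 bile duct markers were well above background on every array.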

How the data were processed

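Cy3-labelled liver RNA of 36 mice was hybridised to Agilent SurePrint G3 mouse arrays, 1 per mouse. The deposited spot intensity is, per the file headers, the background-subtracted and detrended signal of Feature Extraction 10.10.1.1, with no normalization between arrays. Spot flags, another deposited column, are 0 or 1 (other). A processed table by the authors holds log2 values whose columns share 1 distribution, as quantile normalization gives. The submitters' processing notes name limma, and other steps are not given in the sources used here. This table served as an alternative.

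The log2 processed signal was set relative to the 75th percentile of its own array, taken without control spots. Outlier spots were left out and spots of a probe averaged. Probes well above background on at least 6 arrays were kept, and 93 with a missing value were dropped, which left 34681. The probe with the highest mean represented its gene (23038 genes). Names were updated through RefSeq accessions.

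limma 3.58.1 in R 4.3.3 (lmFit, eBayes) fitted 6 group means and wash batch on all 36 arrays, with 28 residual and 2.26 prior degrees of freedom. P values were adjusted by Benjamini-Hochberg over all genes, or over all probes, with a threshold of 0.05. The script was tested on simulated data. Saturated spots numbered 0, and the precision is limited by the number of arrays. The 3 wash batches each held all 6 groups. No 2 arrays were duplicates (highest correlation 0.992).

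The members and gene lists were chosen with earlier results of these data known. Named are every member and probe, Insr, up to 4 genes of each pathway list with the smallest p, and for Hamp, Tfrc and Bmp6 the 3 genes most like them within groups. Some genes of the lists are not reported here by name. Outside that rule and chosen after their values were seen are Alas1, Alas2, Bambi, Fth1, Hba-a1, Id3, Slc39a14, Socs3, Tmprss6 and Ttr.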

Additional observations from a re-analysis of the deposited data

Results flagged for a closer look

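For each of the 10 genes in each of the 6 groups, the gap between the most extreme array and its neighbour was set against the group's range by Dixon's test. Of 60 such sets 7 passed, where chance gives about 3. The Tfr2 level of ZT8 knockout replicate 3 was 6.12 (others 6.67 to 6.82). Slc40a1 on ZT16 control replicate 4 was 3.52 (others 3.91 to 4.03). Hfe on ZT12 control replicate 6 was 2.52 (others 2.66 to 2.69). Hjv was far from the rest on 3 arrays: ZT8 control replicate 6 at -0.29 (others -0.79 to -0.63), ZT8 knockout replicate 1 at -0.048 (others -0.84 to -0.74) and ZT12 knockout replicate 4 at -1.17 (others -0.59 to -0.27). Id1 on ZT8 knockout replicate 2 was 4.16 (others 2.96 to 3.36).

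The genotype effect on Bmp6 differed between times by the limma F test (adjusted p 0.0353), with log2 ratios of -0.38, 0.38 and 0.44 at ZT8, ZT12 and ZT16.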

How the results depend on the processing

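Of 25 called results on the 10 genes, 13 kept their call in every setting run (11 or 12 alternatives and 36 fits without 1 array): Hamp at ZT12, Slc40a1 at ZT8 and ZT16, Tfrc at ZT12, Id1 at ZT8, both rises of Hamp, Tfrc and Hjv in controls, and the ZT16 rises of Hamp and Bmp6 in knockouts. At ZT8 the count of genes called was 4 with quantile normalization, the authors' table or the mean of all kept probes, and 2 with only the groups compared. At ZT12 it was 3 with quantile normalization or only the groups compared, 4 with the authors' table or that mean, and 6 with array weights. At ZT16 it was 2 with no filter on dim probes (3 of 15 probes) and 5 with that mean. It was 3 at ZT16 with normexp, quantile normalization, the authors' table, no wash batch term, slide as a fixed block or only the groups compared. In knockouts from ZT8 to ZT12 it was 1 with normexp or no filter and 0 with only the groups compared. From ZT8 to ZT16 it was 4 in knockouts with the mean of all kept probes or only the groups compared. In controls it was 4 for both steps from ZT8 with that mean, and 4 from ZT8 to ZT12 with array weights. In the F test it was 0 in the authors' table or with no filter, and 2 with the mean of all kept probes or array weights. With the mean of its probes Hfe reversed, to 0.22 at ZT8, 0.028 at ZT12 and 0.22 from ZT8 to ZT16 in controls. The causes were not tested beyond the disagreement of the Hfe probes. Without single arrays the counts were 3 to 4 at ZT8, 4 to 6 at ZT12 and 2 to 4 at ZT16. In controls they were 3 to 4 (ZT12 against ZT8), 0 to 1 (ZT16 against ZT12) and 3 to 3 (ZT16 against ZT8). In knockouts they were 1 to 2, 0 to 1 and 2 to 4, and in the F test 0 to 2. Of all genes, the F test called 3710 with array weights and 1275 with no filter, against 1953. With only the groups compared, the knockout time steps called 618 (ZT12 against ZT8), 1689 (ZT16 against ZT12) and 4360 (ZT16 against ZT8), against 3051, 2898 and 6658. ZT16 against ZT12 in controls called 327 in that fit, 339 with slide as a fixed block and 493 with no filter, against 833.

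With the replicate number as a block, 3, 6 and 4 genes were called at ZT8, ZT12 and ZT16 and 1 in the F test. Bmp6 at ZT12 (0.40, adjusted p 0.0430) was the added call. Whether replicate numbers pair the mice was not determined, since the labels separate mice by number only. The block changed no other call of a genotype or time comparison.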
